A study of Lens culinaris with 18 samples.

Results

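The embryo and the seed coat with endosperm of the lentil line M11 were compared gene by gene. All RNA-seq libraries labelled as M11 were chosen, which gave 3 embryo libraries and 3 libraries of seed coat with endosperm, or 6 of the 18 libraries of the series. M11 is a natural lentil (Lens culinaris) accession whose LcLTP3b gene carries the mutated allele lcltp3b, and all 6 libraries share this genotype. The seeds were mature green seeds, from which the embryo was dissected away from the seed coat, and the plants were untreated and grown in a growth chamber. M11 is a single line, so that a tissue difference measured here is that of 1 genotype. The remaining 12 libraries came from the same tissues of the cultivars CDC Redmoon and CDC Gold, with 3 libraries per cultivar and tissue, and were used only to ask whether a tissue difference in M11 differed from theirs. The seed coat fraction also held the endosperm, so that the seed coat and the endosperm cannot be told apart in it, and it is called seed coat below for short. Whether the 3 libraries of a tissue came from separate plants is not given in the sources used here, so the p-values measure the spread between these libraries, which may be technical.

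A lentil seed consists mainly of the embryo, whose cotyledons fill with storage protein while the seed is green. Vicilins are globulins that are made on the endoplasmic reticulum of cotyledon cells and packed into protein storage vacuoles, where they serve the seedling as a store of nitrogen. The seed coat is tissue of the mother plant that passes sugars and amino acids on to the embryo and later forms the hard, pigmented cover of the seed, whereas the endosperm of legumes is largely used up as the embryo grows. Lipid transfer proteins such as LcLTP3b are small secreted proteins that bind lipids, and LcLTP3b encodes the food allergen Len c3.

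The embryo libraries held 20115328, 19898619 and 19158437 counts and the seed coat libraries 5907695, 6361733 and 6691125 counts, so that low genes were measured with less precision in seed coat. The biological coefficient of variation was 2.704% in embryo and 4.50% in seed coat. Libraries of the same tissue agreed closely, and their log-CPM values correlated at 0.993 or more across genes, against 0.252 to 0.267 between the tissues. Counts were scaled with TMM over the 6 libraries and are given as TMM-normalized CPM, that is, as counts relative to a common library size, a scale that does not allow for gene length and is used here only to compare 1 gene between libraries. The embryo side of the labels was compared only with the vicilin genes, described below. Their list was taken from the study's own table for these libraries, so this is not an independent check. No marker of the seed coat or of the endosperm was checked, since the identifiers were not paired with gene products in the sources used here. Identifiers are written below without their common prefix Lcu.2RBY, as 4g013600 for Lcu.2RBY.4g013600, in which the first digit is the chromosome.

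Most of the expressed genes of M11 differed between the tissues. Of 19151 genes tested, 16432 (85.8%) passed an adjusted p of 0.05 in edgeR's quasi-likelihood test, and 2719 did not. There were 8274 genes higher in embryo (43.2%) and 8158 higher in seed coat (42.6%), and the median log2 fold change, embryo minus seed coat, was 0.02, with quartiles of -1.22 and 1.11. The balance rested on the scaling. With library totals alone the median moved to -0.37, and 38.6% of the calls were then higher in embryo, in place of 50.4%. Fold changes below are relative to the TMM scaling.

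The large differences lay more often on the seed coat side. At least a 2-fold difference was called for 5170 genes in embryo (27%) and 5358 in seed coat (28%), a near balance that rested on the scaling, as library totals alone gave 3951 and 6715. At a log2 fold change of 3 or more the counts were 1459 (7.62%) and 2608 (13.6%), at 5 or more 631 (3.29%) and 1575, and at 8 or more 94 and 435. The counts at 3 and at 5 include 178 embryo genes and 346 seed coat genes with 0 counts in the other tissue, and those at 8 include 68 and 157 such genes, for which the fitted size depends on the prior count and on depth. The libraries were therefore also thinned to equal TMM-scaled sizes, an alternative chosen after seeing the data. The counts were then 1212 and 2334 at 3 or more, 504 and 1399 at 5 or more, and 54 and 401 at 8 or more. Without the genes that had 0 counts in the other tissue after thinning, they were 1120 and 1946, 412 and 1011, and 26 and 212. The plot of all fold changes shows this as a longer left arm. The genes with the most counts were largely different ones in each tissue. The 100 genes with the most counts in embryo and the 100 in seed coat had 21 genes in common. Of the embryo list, 94 were called higher in embryo, where 43.2% of all tested genes were. Of the seed coat list, 80 were called higher in seed coat, where 42.6% of all tested genes were. Each list was chosen by level in its own tissue, so that an excess in that direction is partly built in. The embryo libraries were concentrated on fewer genes. The 10 genes with the most counts took 16.5, 16.3 and 16.2% of the counts in the embryo libraries and 8.57, 8.60 and 8.56% in the seed coat libraries, without overlap (16.3% ± 0.164 against 8.58% ± 0.0245, SD, n = 3 each, exact two-sided permutation p = 0.1, the smallest that 3 libraries against 3 allow).

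**Figure D1:**
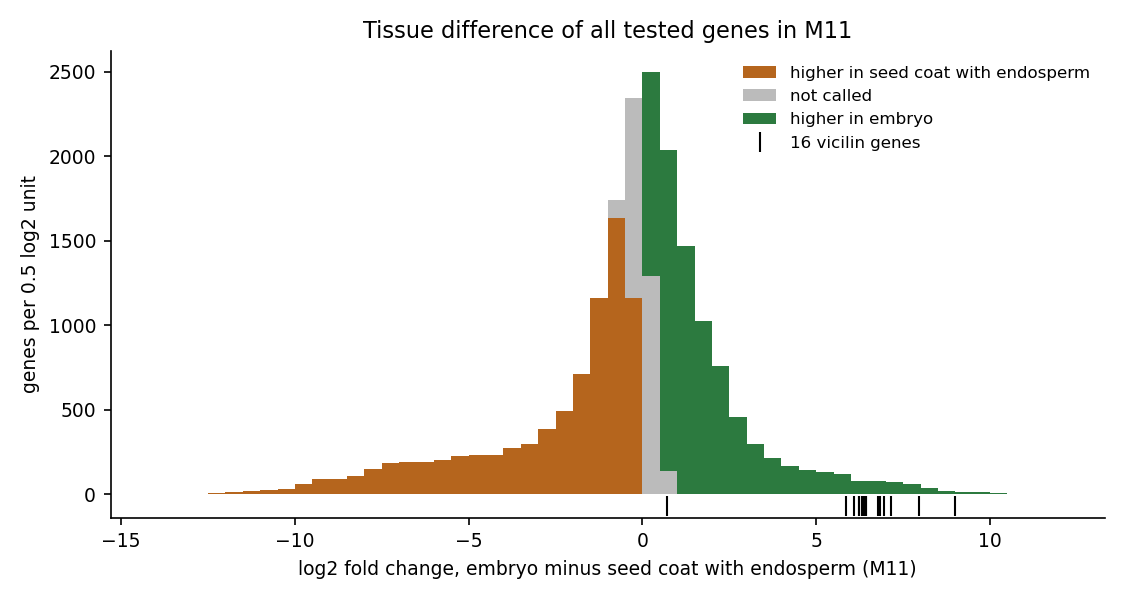
Histogram of the log2 fold change, embryo minus seed coat with endosperm, of the 19151 tested genes of M11 (x axis; y axis, genes per bin), coloured by call at an adjusted p of 0.05, with the 16 vicilin genes as ticks. The seed coat arm holds 435 genes at a log2 difference of 8 or more and the embryo arm 94, and 15 of 16 vicilin ticks lie at 5 or more.

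Vicilin genes took a large part of the embryo counts. All 16 vicilin genes were tested and 16 were called higher in embryo, where 43.2% of all genes were, and in 16 of them every embryo library was above every seed coat library, as in 43.5% of all genes. A log2 fold change of 5 or more was reached by 15 of the 16, against 3.29% of all genes, and the median over the list was 6.40, against 0.02 over all genes tested. Among these, 6g038600 and 7g031150 had 0 and 3 counts over the seed coat libraries and passed the filter on low counts only through embryo, so that they had to differ. Of the other 14 genes, 14 were called higher in embryo and 13 had a log2 fold change of 5 or more, with a median of 6.40. With 6g038600 at the lower bound given below, the median of all 16 was 6.35. The list was taken from the study's own table of vicilin genes in these libraries and is therefore not independent evidence of a direction. Of the 16 genes, 5 were among the 10 genes with the most counts in embryo, and 12 among the first 50.

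Summed over the list, vicilin genes took 14.2, 13.9 and 13.8% of all counts in the embryo libraries. The same sum was 0.204, 0.201 and 0.226% in the seed coat libraries. The 2 ranges lay far apart, with means of 13.99% ± 0.179 and 0.210% ± 0.0135 (SD, n = 3 each), a 66.5-fold ratio and an exact two-sided permutation p of 0.1, the smallest possible. On TMM-scaled library sizes the ratio was 87.7, so that the seed coat libraries held 1.14% of the embryo's vicilin level. In a bulk sample, fewer cells that express vicilin and less vicilin RNA per cell cannot be told apart.

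The vicilin gene with the most counts, 3g008770, was at 31912, 30913 and 30773 CPM in embryo and at 377, 363 and 408 CPM in seed coat. Its log2 fold change was 6.35 (SE 0.06, edgeR adjusted p = 9.80e-73). The neighbours on chromosome 3, 3g014420, 3g014440 and 3g014450, summed to 54389 ± 1035 CPM in embryo and 664 ± 53.8 CPM in seed coat, an 81.9-fold ratio. The pair 6g038150 and 6g038160 summed to 13708 ± 201 and 108 ± 10.7 CPM, a 127-fold ratio. The group from 6g038550 to 6g038600 summed to 38765 ± 1016 and 366 ± 19.99 CPM, a 106-fold ratio (SD, n = 3 each). In all of these groups the lowest embryo library was above the highest seed coat library. Neighbouring vicilin genes may share reads if their sequences are near-identical, and how such reads were counted is not given in the sources used here, so the sums are firmer than the split between members.

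Within the list, the 13 genes other than 5g065750, 6g038600 and 7g031150 had log2 fold changes between 5.84 (1g038070) and 7.95 (7g031050). The gene 7g031050 was at 3927, 3803 and 3691 CPM in embryo and at 14.4, 15.1 and 16.5 CPM in seed coat, and its seed coat level was 0.403% of the embryo level, the smallest share among these 13. The other single genes, 4g077560 and 6g035140, had log2 fold changes of 6.44 and 6.23.

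The vicilin gene 5g065750 departed from the rest of the list. It was at 11.6, 13.8 and 13.7 CPM in embryo and at 6.91, 10.99 and 5.89 CPM in seed coat. The groups did not overlap, yet the log2 fold change was only 0.71 (SE 0.15, edgeR adjusted p = 1.07e-05). The gene was not called in a test against a 2-fold difference (edgeR's glmTreat, adjusted p = 1), which an estimate under 2-fold cannot pass. The remaining 2 members were low. The gene 6g038600 had 107, 85 and 75 counts in the embryo libraries and 0 in all 3 seed coat libraries, where 3 counts over the group would be 0.138 CPM, so that it was at least 37.6-fold higher in embryo. The gene 7g031150 had 198, 159 and 158 counts in embryo and 3, 0 and 0 in seed coat, a ratio of 72.5 with a 95% counting interval from 24.7 to 353. This interval and the limits for 0 counts cover counting error only.

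**Figure D2:**
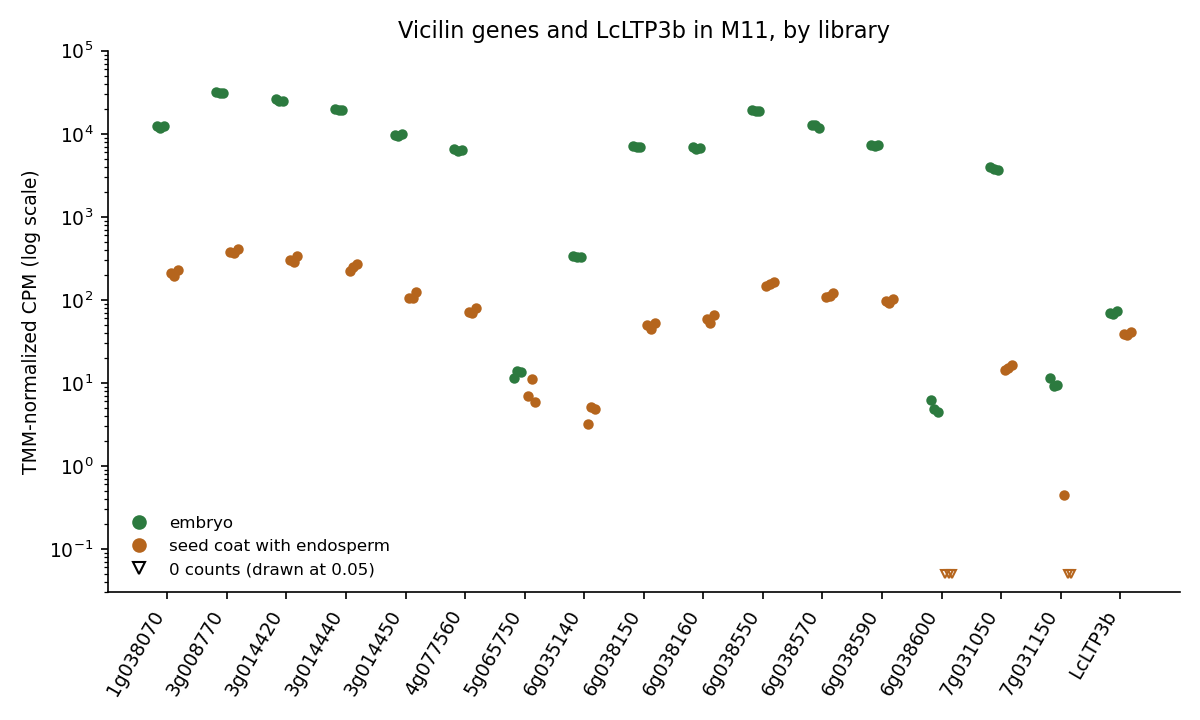
TMM-normalized CPM (log scale) of the 16 vicilin genes and LcLTP3b in each of the 6 M11 libraries; each point is 1 library, and open triangles mark 0 counts. Embryo points lie above the seed coat points in every gene, with a narrow gap in 5g065750 (log2 0.71) and LcLTP3b (log2 0.84).

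In the seed coat libraries the vicilin genes varied together. Of the 13 vicilin genes with 5 CPM or more in seed coat, 12 were highest in seed coat library 3, and the median ratio of library 3 to the mean of libraries 1 and 2 was 1.12. The same library was the highest for 44 of 55 genes of any kind that were called higher in embryo with a log2 fold change of 5 or more and had 5 CPM or more in seed coat (80%), again with a median ratio of 1.12. These 55 include vicilin genes and the chromosome 5 stretch described below, and without both lists it was the highest for 27 of 38 (71.1%). Among all 13196 tested genes at that seed coat level the share was 37.4% and the median ratio 1.01. Whether the vicilin RNA in the seed coat libraries belongs to cells of the seed coat was not tested.

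LcLTP3b (4g013600) was expressed in both tissues of M11 and was moderately higher in embryo. It was at 70.0, 67.0 and 74.0 CPM in embryo and at 38.7, 38.0 and 41.3 CPM in seed coat, without overlap. The means were 70.3 ± 3.50 and 39.3 ± 1.75 CPM (SD, n = 3 each), and the log2 fold change was 0.84 (SE 0.06, edgeR adjusted p = 1.98e-19). The gene was not called in a test against a 2-fold difference (glmTreat, adjusted p = 1), which an estimate under 2-fold cannot pass. These counts are of reads assigned to the gene and do not tell the mutated allele from an intact one. The 3 nearest identifiers on either side of it had 0 counts in all 6 libraries.

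The nearest neighbours of LcLTP3b above a minimum count summed over the 6 libraries, chosen after their values were seen, went different ways. Any nearer identifiers below that minimum were passed over. The gene 4g013550 was at 78.2, 79.2 and 85.0 CPM in embryo and at 5.73, 5.36 and 5.49 CPM in seed coat, a log2 fold change of 3.87 (SE 0.10). On the other side, 4g013650 was at 61.0, 49.997 and 45.5 CPM in embryo and at 5491, 5095 and 5356 CPM in seed coat, a log2 fold change of -6.67 (SE 0.06). It took the fifth most counts of all genes in seed coat. Beyond it, 4g013680 was at 36.0, 34.9 and 41.8 CPM in embryo and at 59.1, 60.8 and 59.1 CPM in seed coat (log2 fold change -0.67, SE 0.07). In none of these 3 genes did the tissue groups overlap, which also held for most tested genes (43.5% with embryo higher and 42.8% with seed coat higher). LcLTP3b, with its moderate embryo excess, lay between a gene with a larger one and a gene with a large seed coat excess.

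The 5 genes with the most counts in embryo were the vicilin genes 3g008770, 3g014420 and 3g014440 and a pair on chromosome 5, 5g050030 and 5g050090. The pair belonged to a stretch of 5 neighbouring tested genes, from 5g050030 to 5g050260, all higher in embryo with log2 fold changes from 6.32 to 6.91. This stretch was 1 of the 2 embryo stretches found under the rule given below. Their sum was 62024, 61238 and 61813 CPM in the embryo libraries and 539, 549 and 646 CPM in the seed coat libraries. In shares, the 5 genes took 5.37% ± 0.00975 of the embryo counts and 0.0663% ± 0.00659 of the seed coat counts (SD, n = 3 each). As with the vicilin genes, seed coat library 3 was the highest in all 5. Their products are not named in the sources used here.

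The seed coat libraries were led by other genes. The gene with the most counts there, 4g023050, was at 18136, 17992 and 18745 CPM in seed coat and at 11.3, 10.03 and 10.8 CPM in embryo (log2 fold change -10.74, SE 0.07). The gene 5g059060 was at 14664, 15159 and 14972 CPM and at 6.45, 6.48 and 6.60 CPM (-11.16, SE 0.07). The gene 3g005030 was at 5900, 6184 and 5767 CPM and at 8.52, 9.002 and 9.36 CPM (-9.37, SE 0.07). The levels of these 3 genes in embryo were 0.0585, 0.0436 and 0.151% of those in seed coat. No groups overlapped, which held in that direction for 42.8% of all tested genes. The exception among the first 5 was 7g077270, a gene of both tissues, at 7161, 7565 and 7246 CPM in seed coat and 1125, 1128 and 1132 CPM in embryo (-2.70, SE 0.04). The edgeR adjusted p was 3.42e-78 or less for the first 3 of these genes and 7.54e-58 for 7g077270. The fifth, 4g013650, was described above as a neighbour of LcLTP3b.

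Among genes with at least 50 CPM of library totals in embryo, the largest log2 fold change was that of 3g002510, with 1857, 1732 and 1808 counts in embryo and 0, 0 and 1 in seed coat. On TMM-scaled sizes its ratio was 2279, with a 95% counting interval from 409 to 90016. A gene close by, 3g002490, had a ratio of 1400 (251 to 55314). The gene 3g073510 was at 495, 462 and 490 CPM in embryo and at 0.588, 0.549 and 0.523 CPM in seed coat, a log2 fold change of 9.74 (SE 0.11, edgeR adjusted p = 1.29e-66). The genes 6g064160 and 5g022710 followed, with ratios of 880 (243 to 7269) and 625 (173 to 5164) and at most 2 counts in any seed coat library.

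In seed coat, 2g006400 had 1778, 2062 and 1930 counts against 1, 0 and 0 in the deeper embryo libraries, a ratio of 13667 (2452 to 539895). The gene 7g072640 had 1839, 1955 and 2006 counts against 1, 1 and 0, a ratio of 6869 (1901 to 56732). The gene 7g009930 had a ratio of 6414 (1150 to 253435). No counts at all were found in embryo for 2g029730, with 366, 354 and 391 counts in seed coat, or for 2g078700, with 272, 352 and 341. With 3 counts over the embryo group, which is 0.0583 CPM, they were at least 877-fold and 762-fold higher in seed coat. The counting intervals of the embryo and the seed coat ratios overlap in part, and the ranking within each side is not resolved at this depth.

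Some abundant genes did not pass the test. The 3 uncalled genes with the most counts and a log2 fold change within 0.1 were 7g058380, at 2707, 2654 and 2702 CPM in embryo and 2573, 2626 and 2713 CPM in seed coat (0.03, SE 0.04, edgeR adjusted p = 0.516), 4g043720 (-0.02, SE 0.04, adjusted p = 0.568) and 5g042360 (-0.04, SE 0.04, adjusted p = 0.356). Their tissue groups overlapped. These calls depended on the scaling, and with library totals alone all 3 were called higher in seed coat, at -0.37, -0.42 and -0.44. Thinned to equal TMM-scaled sizes, 4g043720 and 5g042360 were also called, at -0.08 and -0.10.

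How much of a gene's level was left in the other tissue differed between the sides. Genes called higher in embryo with a mean of 50 CPM or more there numbered 2569, and their median level in seed coat was 39.7% of that in embryo. Genes called higher in seed coat with 50 CPM or more there numbered 2340, with a median embryo level of 40.5%. The medians were alike, but the low ends were not. The lowest level left was 0.0416% among the embryo genes and 0 among the seed coat genes, 2 embryo genes and 53 seed coat genes fell below 0.1%, and 58 and 288 fell below the 1.14% of the summed vicilin genes. The difference between the low ends has no test, since genes of 1 library are not replicates, and the lower depth of the seed coat libraries bears on the embryo genes with few counts.

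**Figure D3:**
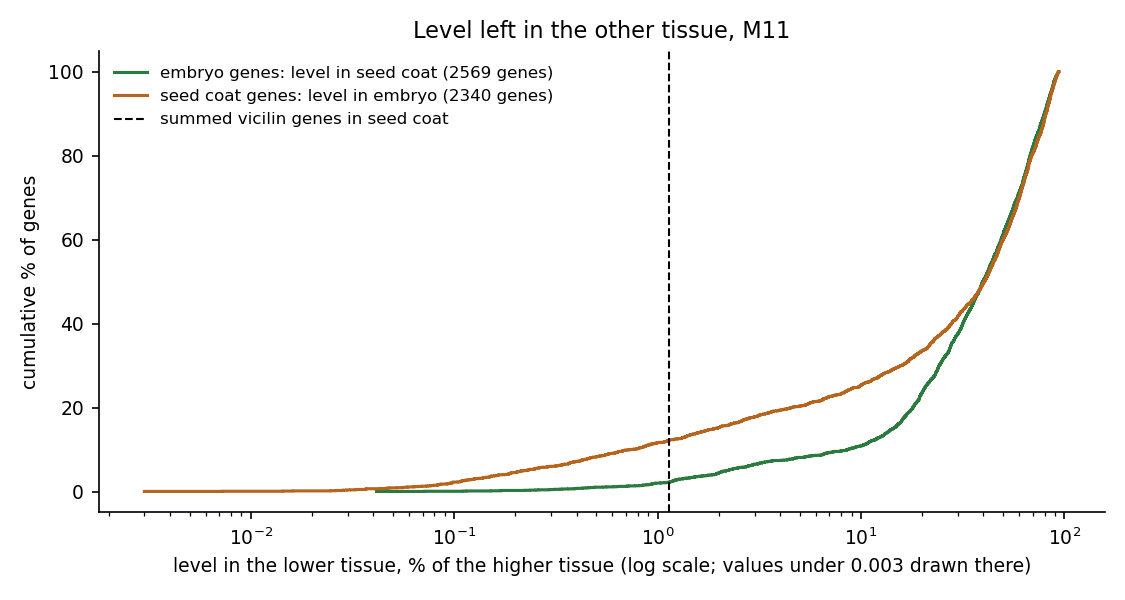
Cumulative percentage of genes (y axis) against the level left in the lower tissue as a percentage of the higher tissue (x axis, log scale), for 2569 genes called higher in embryo and 2340 called higher in seed coat, all at 50 CPM or more in the higher tissue. The curves meet near their medians of 39.7% and 40.5%, and at the dashed line of the summed vicilin genes (1.14%) the seed coat curve holds 288 genes and the embryo curve 58.

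Genes on in one tissue and off in the other were more numerous in seed coat. At 2 CPM or more in all 3 libraries of a tissue and 0.1 CPM or less in all 3 of the other, relative to library totals, 64 genes were on in embryo and 396 on in seed coat. Since 0.1 CPM is less than 1 count in the seed coat libraries, the 64 embryo genes had to have 0 counts there, whereas 173 of the 396 seed coat genes had 0 counts in embryo. After thinning all libraries to 5907695 counts the numbers were 64 and 388, of which 55 and 300 were on the lists at full depth. On TMM-scaled sizes they were 81 and 336, and thinned to equal TMM-scaled sizes 70 and 289. The embryo number moved to 98 without seed coat library 2. The embryo genes had a median level of 3.57 CPM and a maximum of 22.9 CPM, and the seed coat genes 6.84 and 306 CPM. At 5 CPM or more the numbers were 21 and 229. The embryo genes with the most counts, chosen after their values were seen, were 2g026650, with 466, 441 and 448 counts, and 6g021000, with 334, 540 and 363 counts. With 0 counts in seed coat they were at least 191-fold and 174-fold higher in embryo. The seed coat list was led by 7g072640, 2g006400 and 7g009930, given above. Thinned to equal totals, a library of embryo had counts for 21380 to 21462 genes and a library of seed coat for 22694 to 22881. At full depth the order was the reverse, with 23859 to 24117 genes in the deeper embryo libraries and 22881 to 23027 in seed coat. Equal totals leave fewer counts for the remaining genes in embryo, where the most abundant genes took a larger share. Which tissue expresses more genes is therefore not settled by these numbers.

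The tissue differences were spread evenly over the chromosomes. On chromosomes 1 to 7, 42.1 to 44.7% of tested genes were higher in embryo and 41.2 to 44.7% higher in seed coat. A log2 fold change of 3 or more towards seed coat was found for 12.7 to 13.99% of the genes on these chromosomes and for 19.3% of the 483 tested genes whose identifiers start with L in place of a chromosome number.

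On a finer scale, some neighbouring genes shared a large difference. Runs were defined as 5 or more tested genes, adjacent in the order of their identifiers, all called in 1 direction with a log2 fold change of 3 or more. There were 22 runs, 2 towards embryo with 11 genes and 20 towards seed coat with 123 genes, where 7.62 and 13.6% of all tested genes met the threshold. At a log2 fold change of 1 the numbers were 36 and 58. The longest embryo run, 7g056070 to 7g056280, held 6 genes with log2 fold changes from 3.59 to 8.36. It summed to 995, 1003 and 960 CPM in embryo and 12.2, 10.7 and 13.996 CPM in seed coat, most of it from 7g056120 at 873, 869 and 830 CPM against 10.4, 8.10 and 10.2 CPM.

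The longest seed coat run, 7g020390 to 7g020540, held 15 genes with log2 fold changes from -10.19 to -3.18. It was followed, after the single gene 7g020550 at -2.45 (SE 0.46), by a second run of 6 genes, 7g020560 to 7g020680, at -5.38 to -4.38. The stretch began right after 7g020360, which was higher in embryo (1.56, SE 0.59), and ended with 7g020690 just short of the threshold (-2.98, SE 0.36). The next genes on either side, 7g020340 (0.39) and 7g020700 (0.14), were not called. Over both runs, the 21 genes summed to 1125, 1003 and 872 CPM in seed coat and to 25.6, 20.5 and 24.7 CPM in embryo. A large part came from the first gene, 7g020390, at 272, 281 and 302 CPM in seed coat and 0.230, 0.115 and 0.360 CPM in embryo. Several members were low, such as 7g020570 with 8, 5 and 6 counts in seed coat and 1, 0 and 0 in embryo.

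The seed coat sum over the 21 genes had a coefficient of variation of 12.6% between libraries, against 1.47 to 16.9% (median 8.71%) over the 20 seed coat runs. Over single genes, 10745 tested genes at 10 CPM or more in seed coat, the median was 6.25% and the 95th percentile 16.6%. The sum over the stretch was highest in seed coat library 1 and lowest in library 3, whereas 7g020390 had the opposite order. Of the 20 seed coat runs, 11 had their highest sum in library 1 and their lowest in library 3, 3 had the reverse and 6 another order. Among all tested genes, taken singly, 16.5% were highest in library 1 and lowest in library 3. The runs were measured in the same 3 libraries and are not replicates of one another.

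**Figure D4:**
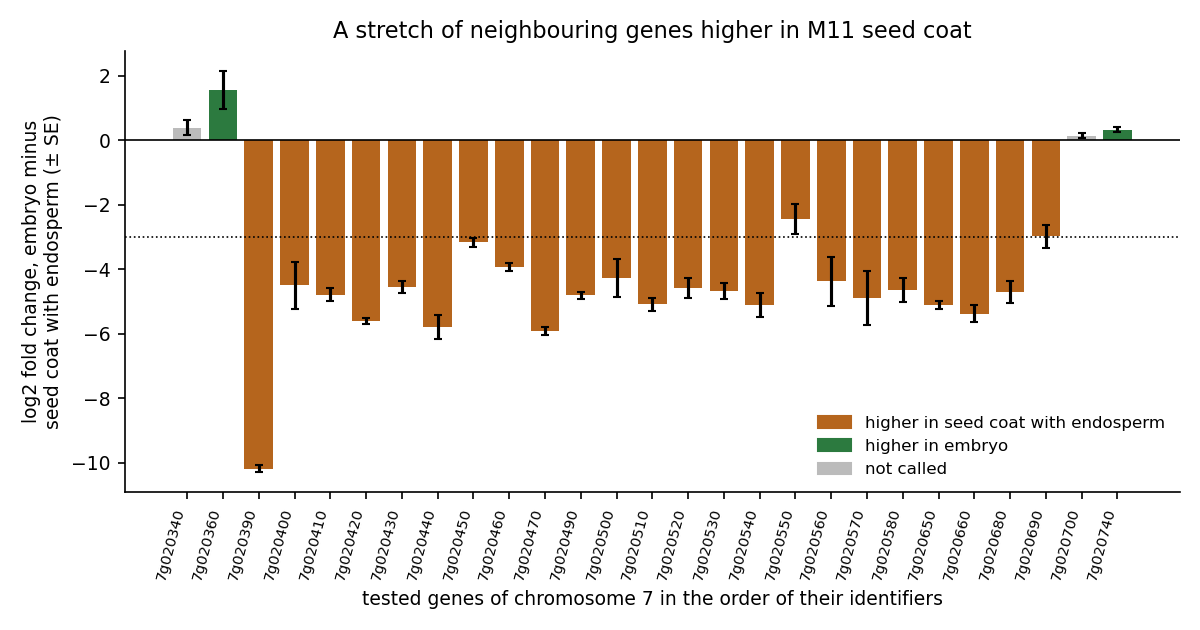
Log2 fold change, embryo minus seed coat with endosperm, ± SE from the edgeR fit (y axis) of the tested genes from 7g020340 to 7g020740 in the order of their identifiers (x axis); bars are coloured by call, and the dotted line marks -3. The values are 0.39 at 7g020340 and 1.56 at 7g020360, drop to -10.19 at the next gene, 7g020390, and are 0.14 at 7g020700.

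To ask which of these differences were shared with the cultivars, the tissue difference of M11 was compared with the mean of those in Redmoon and Gold in 1 fit of all 18 libraries, an interaction that does not change if the cultivar labels were exchanged in 1 tissue. Log2 values of this fit are scaled over all 18 libraries. Most of the direction was shared: of the 5170 genes at least 2-fold higher in M11 embryo, 4648 (89.9%) were also higher in embryo in the cultivar mean and 125 (2.42%) were higher in seed coat there, and of the 5358 seed coat genes 4699 (87.7%) were the same way and 195 (3.64%) the opposite way. The size of the difference often departed from the cultivar mean. The interaction was called for 10663 of 22081 genes (48.3%), above 0 for 5001 (22.6%) and below 0 for 5662 (25.6%). With library totals alone these numbers were 12118 and 1972, with a shift of the median from -0.02 to 0.74, so that a direction over many genes depends on the scaling. One of the 12 cultivar libraries, embryo library 3 of Gold, had 3270275 counts, against 20805496 and 22958727 in the other two of its group. Without it the numbers were 5057 and 5720, and with each of the 12 cultivar libraries left out in turn, an alternative chosen after seeing the data, they ranged from 4934 to 5062 and from 5346 to 5720.

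Most vicilin genes had a smaller embryo excess in M11 than in the mean of the cultivars, but not than in each cultivar. Against the mean, the interaction was below 0 in 11 of the 16 genes, where it was in 25.6% of all genes, above 0 in 2 and not called in 3, with a median of -0.998, against -0.02 over all genes. With library totals alone 8 were below 0 and 2 above, where 1972 and 12118 of all 22081 genes were. The vicilin median was then -0.22. Relative to the median of all genes, the vicilin medians were -0.98 with TMM and -0.96 with totals alone. Against each cultivar as labelled, a comparison added after seeing the data, 11 were below 0 and 2 above in Gold (median -2.38), but 3 were below and 8 above in Redmoon (median 0.51). Of all 22081 genes, 27.2% were below 0 against Gold and 26.7% against Redmoon, and 6201 and 4519 genes were above 0. Whether the cultivar labels are exchanged in 1 tissue was not tested. With the labels crossed, 12 were below and 1 above against Redmoon embryo with Gold seed coat, and 9 and 2 against Gold embryo with Redmoon seed coat. Of all genes, 23.6 and 26.2% were below 0 in these crossed comparisons, and 5141 and 4536 genes were above 0. The gene 3g008770 had a tissue difference of 6.37 in M11 and 7.77 in the cultivar mean, an interaction of -1.40 (SE 0.09, edgeR adjusted p = 2.91e-21). Its difference was 9.22 in the libraries labelled Gold and 6.32 in those labelled Redmoon, and M11 minus Redmoon was 0.05 (SE 0.10, edgeR adjusted p = 0.731). The 2 genes above 0 against the mean were 5g065750 (1.68, SE 0.18) and 7g031050 (0.79, SE 0.13). The latter was at 6.80 against Redmoon and at -5.23 against Gold. For 5g065750 the direction itself differed, at 0.74 in M11 and -0.95 in the cultivar mean.

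LcLTP3b had one of the wider gaps among the named genes. Its tissue difference was 0.86 in M11 and 5.26 in the cultivar mean, an interaction of -4.40 (SE 0.15, edgeR adjusted p = 1.63e-33). Against each of the 4 combinations of a cultivar embryo with a cultivar seed coat it was called below 0, at -4.88 to -3.92. On the scale of all 18 libraries its seed coat level was 30.5 ± 1.36 CPM in M11, 1.12 ± 0.0745 in the libraries labelled Gold and 1.16 ± 0.186 in those labelled Redmoon (SD, n = 3 each). Its embryo level was 55.4 ± 2.78, 59.1 ± 10.4 and 31.3 ± 3.76 CPM in the same order. In seed coat the M11 libraries did not overlap with those of either cultivar, and in embryo they lay within the range of Gold.

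The neighbour 4g013650 had an interaction of the opposite sign, 2.62 (SE 0.11, edgeR adjusted p = 1.30e-29), at -6.65 in M11 and -9.27 in the cultivar mean. The smallest interactions among genes with 50 CPM or more in an M11 tissue were those of 4g049100 (-8.55), 6g068870 (-7.62) and 4g059580 (-7.10). The seed coat level of 4g059580 was 96.7 ± 2.20 CPM in M11, 0.0770 ± 0.0675 in Gold and 0.209 ± 0.121 in Redmoon (SD, n = 3 each), and its tissue difference was -2.96 in M11 and 4.13 in the cultivar mean. The largest interaction was that of 5g074120, at -5.19 in M11 and -10.75 in the cultivar mean (5.56, SE 0.29, adjusted p = 1.32e-24), with an embryo level of 3.07 ± 0.114 CPM in M11 and of 0.0648 ± 0.0566 and 0.213 ± 0.140 CPM in Gold and Redmoon.

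**Figure D5:**
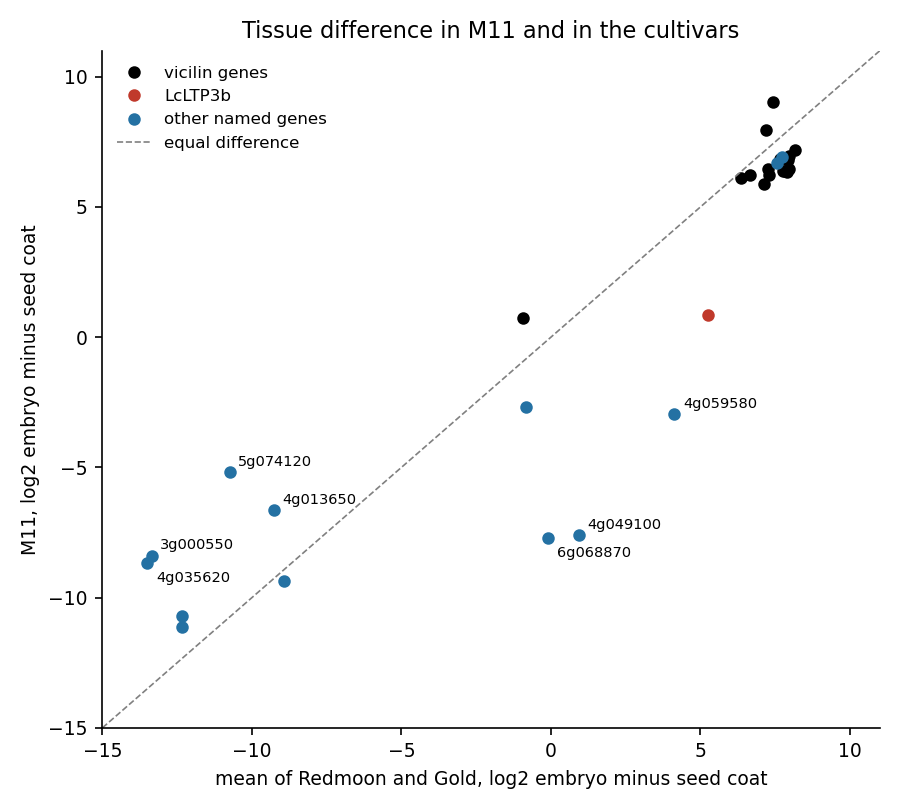
Log2 tissue difference, embryo minus seed coat with endosperm, in M11 (y axis) against the mean of Redmoon and Gold (x axis) for the vicilin genes, LcLTP3b, the genes with the most counts and the 3 largest and 3 smallest interactions; the dashed line marks equal differences. LcLTP3b lies at 0.86 in M11 and 5.26 in the cultivar mean, and 11 vicilin genes called below 0 lie under the line; 6g038600 has 0 counts in all seed coat libraries, so its place depends on the prior count.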

How the data were processed

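The authors deposited 6 tables of raw read counts per gene, whole numbers for 58243 genes, without normalization, and each column belonged to 1 library. The libraries were made with a TruSeq RNA kit and sequenced as paired-end reads. The submitters' processing notes name STAR 2.7.10; what counted the reads, on which genome build and with what rule for multiply matching reads is not given in the sources used here. Without a genome or annotation, genes are given by identifier, and no product is named beyond LcLTP3b and the vicilin genes. M11 totals ranged from 5907695 to 20115328 counts, and limits for 0 counts use 3 counts over a group.

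For the 6 M11 libraries, edgeR 4.0.16 was run in R 4.3.3 (filterByExpr, TMM, glmQLFit and glmQLFTest, no block), with Benjamini-Hochberg adjustment over the 19151 genes tested and a call at an adjusted p of 0.05. The filter left out 39092 genes. The interaction used 18 libraries in 6 groups and 22081 genes, against the mean of both cultivars. Sums over genes were tested by exact two-sided permutation of the libraries. The fits were tested on simulated counts in which 200 genes were changed and the groups were otherwise alike. The changed genes were drawn only from those above a minimum mean count, so recovery at few counts was not measured. In the M11 fit, 99% of 2-fold and 84% of 1.5-fold changes were recovered, and 6.63% of the calls were false. In the interaction fit these values were 96, 81 and 3.80%. Most genes differ between the tissues in the real libraries, a setting that the simulation did not cover. The alternatives were DESeq2's size factors, library totals alone, TMM without the vicilin genes, DESeq2 1.42.0, other filters on low counts, a block for the replicate number, 1 fit of all libraries, thinning to 5907695 counts, glmTreat and each M11 library left out. Thinning to equal TMM-scaled sizes, leaving out each cultivar library and comparing M11 with each cultivar or crossed pair of cultivar groups were added after seeing the data.

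The genes named were LcLTP3b, the 16 vicilin genes of the study's list, the 5 genes with the most counts in each tissue, the 5 largest and 5 smallest fold changes among called genes without overlap and with at least 50 CPM, the 3 abundant uncalled genes with a log2 fold change under 0.1, the 3 largest and 3 smallest interactions, the longest run in each direction and the 3 identifiers on either side of LcLTP3b. Other genes are said to have been chosen after their values were seen, which also holds for the chromosome 5 stretch, the second chromosome 7 run and the comparisons between seed coat libraries. Lists of gene products could not be used, since no identifier was paired with one. The members and lists were chosen with earlier results of these data known. All replicate pairs differed by more than sampling noise and were counted separately.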

Additional observations from a re-analysis of the deposited data

Results flagged for a closer look

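The tissue difference of M11 differed from the mean of Redmoon and Gold in the edgeR interaction test for 27 of the named genes, each given here as a log2 value, M11 minus the cultivar mean. Over all 22081 genes tested, 48.3% were called in this test. Of the named genes compared, only 6g035140, 6g038600 and 7g031150 were not called, and the 3 largest and 3 smallest interactions were picked among called genes. The 27 values show a difference from the mean and not from each cultivar. In each of the 4 combinations of a cultivar embryo with a cultivar seed coat, 10 of the 27 were called the same way. These were 2 of 13 vicilin genes (5g065750 and 6g038590) and 8 of 14 others, among them LcLTP3b. The 14 include genes picked for the size of their interaction, and the share over all called genes was not computed. Above 0 were 5g074120 at 5.56, 3g000550 at 4.95, 4g035620 at 4.83, 4g013650 at 2.62, 5g065750 at 1.68, 4g023050 at 1.61, 5g059060 at 1.21 and 7g031050 at 0.79. The cultivar embryos had no counts of 4g035620, so its fitted value depends on the prior count. Below 0 were 4g049100 at -8.55, 6g068870 at -7.62, 4g059580 at -7.1, LcLTP3b (4g013600) at -4.4, 7g077270 at -1.86, the chromosome 5 genes 5g050030 at -0.85 and 5g050090 at -0.79, and 3g005030 at -0.42. The vicilin genes below 0 were 3g014440 at -1.56, 3g014450 at -1.52, 3g014420 at -1.44, 3g008770 at -1.4, 1g038070 at -1.25, 6g038570 at -1.13, 6g038590 at -1.07, 6g038550 at -1.01, 6g038150 at -0.98, 6g038160 at -0.81 and 4g077560 at -0.8. Where the cultivar embryos or seed coats were at few counts, as for 4g049100, 6g068870 and 3g000550, the size of the value is less certain than its direction. The cause of these differences was not tested.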

How the results depend on the processing

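Of 1876 values of single genes under an alternative, 1832 kept their side of the threshold and, where called, their direction. Values uncalled in both settings were counted as kept whatever their sign. An example is the interaction of 6g035140, at -0.41 against the cultivar mean and 0.41 against Gold embryo with Redmoon seed coat. Library totals alone turned 7g058380 to -0.37 and the interaction of 3g005030 to 0.36, ended the interaction call of 4g077560, 6g038160, 6g038550, 5g050030 and 5g050090, and gave 12118 genes above 0 and 1972 below 0 in the interaction, with a median shifted from -0.02 to 0.74. A minimum of 10 counts in every library, which tests fewer genes and removes those absent from a tissue, gave 3166 and 3210 genes with a 2-fold difference in embryo and seed coat and 3073 and 3618 interaction calls. Against a 2-fold difference (glmTreat), 4443 and 4847 genes were called. LcLTP3b, whose 0.84 is under that threshold, could not be called there (glmTreat adjusted p = 1). Over its other alternatives its log2 value was 0.44 to 0.89 and it was called in each. DESeq2 called 7974 and 8817 genes. The summed vicilin ratio of 66.5 became 87.7 on TMM-scaled sizes and 72.7 without the 10 most abundant genes, and 65.1 to 69.1 when 1 library was left out. The 50 most abundant genes differed by 12.7 percentage points in place of 7.76. The genes on in 1 tissue numbered 21 and 229 at 5 CPM, and 68 to 98 in embryo and 422 to 498 in seed coat with 1 library left out. At a log2 fold change of 1, 36 and 58 runs were found. Same-numbered libraries of the 2 tissues did not deviate together (correlations 0.03, -0.01 and 0.05). This cannot exclude that they are paired, since the deviations among 3 close libraries are partly counting noise. The labels do not say whether they are. With the replicate block 8226 genes were higher in embryo, 8102 higher in seed coat and 16 vicilin genes were called. In the interaction, 4786 and 5414 genes were called with the block. Of the alternatives added after seeing the data, the interaction against the libraries labelled Redmoon turned 1g038070 to 1.64, 3g008770 to 0.051, 3g014440 to 0.20, 3g014450 to 0.78, 4g077560 to 0.48, 6g038150 to 0.68, 6g038160 to 0.49, 6g038570 to 0.91 and 5g050090 to 0.19. Among these, 3g008770, 3g014440 and 5g050090 were not called. Against those labelled Gold, 6g038550 was at 2.80, 7g031050 at -5.23, 4g023050 at -0.99, 5g059060 at -0.17 and 3g005030 at 0.79, and all but 5g059060 were called. Against Redmoon embryo with Gold seed coat 3g005030 was at 0.28, and against Gold embryo with Redmoon seed coat 4g023050 was at -0.18. Neither of these crossed values was called. The cause of the reversals was not tested. Depth limits the seed coat side, where 3 counts over the group are 0.138 CPM against 0.0583 CPM in embryo.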
